A study of Homo sapiens with 5 samples.

Results

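PCDH7, a protocadherin whose ribosome footprints were 17.0-fold lower in eIF6-mutant HCT116 cells, is described here with 9 other genes of the cadherin superfamily, namely PCDH1, PCDH9, CDH1, CDH3, CDH17, FAT1, DCHS1, CELSR1 and CELSR2. The members were chosen by name from the table of footprint counts per gene, with earlier results of these data known. PCDH7 was picked for its fall in the mutant, so its values are a description and carry no test. Rows were found for 9 of the 10 names among 17297 genes, and CDH17 was not analysed here. HCT116 is a human colorectal carcinoma line. MUT denotes cells made homozygous for eIF6 N106S by CRISPR/Cas9 editing, with 3 libraries, and WT denotes HCT116 cells labelled Wt for genotype, with 2 libraries. The labels speak of mutant clones but tie no library to a clone or culture. The p-values therefore measure how these libraries vary, which may be technical variation only, and the edit cannot be told apart from other differences between a clone and its parent line. eIF6 binds the large ribosomal subunit and keeps it from joining the small subunit, and the series' title concerns inactive 80S ribosomes, mitotic exit and cancer progression.

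Cadherins are calcium-dependent adhesion proteins built from repeated extracellular cadherin domains. Classical cadherins hold epithelial cells together at adherens junctions and are tied to actin through catenins. Non-clustered protocadherins such as PCDH7 have other cytoplasmic tails, and the FAT, Dachsous (DCHS) and CELSR proteins are giant cadherins with roles in planar polarity and growth control. Ribosome profiling counts the mRNA fragments that ribosomes protect from nuclease. No RNA-seq was analysed here, so mRNA level and ribosomes per mRNA are not separated. In these bulk samples, fewer expressing cells and less RNA per cell cannot be told apart.

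The sequence before the start of PCDH7 is shown because its footprints were nearly lost, beside PCDH1, a related protocadherin, and FAT1, a giant cadherin on the same chromosome whose footprints are given further on. Entries of the RefSeq promoter table (GRCh38.p14) matched 5 of the 10 members. Each line holds the 250 bases before the listed start, 5′ to 3′ on the gene's strand, and capitals mark CAGGTG or its reverse complement CACCTG, the E-box form bound by the ZEB and SNAI repressors. The windows lie at chr4:30720119-30720368 (plus strand) for PCDH7, at chr5:141869628-141869877 (minus strand) for PCDH1 and at chr4:186726697-186726946 (minus strand) for FAT1.
PCDH7: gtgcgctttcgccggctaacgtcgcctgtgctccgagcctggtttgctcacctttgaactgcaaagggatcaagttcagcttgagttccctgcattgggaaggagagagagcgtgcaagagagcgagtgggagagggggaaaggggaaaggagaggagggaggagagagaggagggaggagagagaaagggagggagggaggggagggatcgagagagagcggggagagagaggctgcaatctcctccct
PCDH1: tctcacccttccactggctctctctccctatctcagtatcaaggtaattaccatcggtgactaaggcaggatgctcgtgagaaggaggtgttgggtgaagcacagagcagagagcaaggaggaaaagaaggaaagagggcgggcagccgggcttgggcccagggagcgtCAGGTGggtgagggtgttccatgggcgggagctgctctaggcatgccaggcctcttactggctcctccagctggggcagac
FAT1: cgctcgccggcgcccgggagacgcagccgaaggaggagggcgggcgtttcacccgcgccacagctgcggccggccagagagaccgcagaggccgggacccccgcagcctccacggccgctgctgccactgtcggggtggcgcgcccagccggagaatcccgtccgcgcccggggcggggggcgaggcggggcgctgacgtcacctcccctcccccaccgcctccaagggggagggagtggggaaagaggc
PCDH1 held 1 such E-box, 81 bases before its listed start, which is not the outermost bound of that gene, and neither the PCDH7 nor the FAT1 window held these letters. Of 35116 windows of this length in the table, 17.5% held the motif, so these matches are a description only. The PCDH7 window was 69.2% A or G on the gene's strand, against a median of 50% over all windows, and 0.698% of windows reached that share. It held 10 CG dinucleotides, against 6 in the PCDH1 window and 32 in the FAT1 window.

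PCDH7 (gene ID 5099) spans 30720369 to 31146800 on chromosome 4. It belongs to the delta-1 protocadherins, whose tail binds protein phosphatase 1. PCDH7 had 60, 61 and 54 counts in MUT replicates 1, 2 and 3, against 561 and 829 counts in WT replicates 1 and 2. Scaled to library size, these were 19.1, 16.1 and 13.9 counts per 1000000 counts (CPM) in MUT libraries, against 280.2 and 271 CPM in WT libraries. Every MUT library lay far below every WT library, and the spread within a group was small beside the gap. The means were 16.3 ± 2.63 CPM in MUT (SD, n = 3) and 276 ± 6.45 CPM in WT (SD, n = 2), a log2 fold change of -4.09 (SE 0.12) for MUT over WT.

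Footprints on PCDH7 were reduced and not absent in MUT. As an unscaled share of its library, PCDH7 held 14.1 CPM in MUT replicate 3, the lowest library, with an exact Clopper-Pearson 95% interval of 10.6 to 18.4. In WT replicate 2 it held 265 CPM, with an interval of 247 to 284. These intervals cover counting error only. A ratio to another gene within the same library needs no scaling between libraries. For every 100 counts on FAT1 there were 2.00, 1.59 and 1.40 counts on PCDH7 in MUT libraries, against 27.9 and 28.6 in WT libraries. The log2 fold change of PCDH7 lay between -4.20 and -3.97 under all 12 alternative settings, left-out libraries included.

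**Figure D1:**
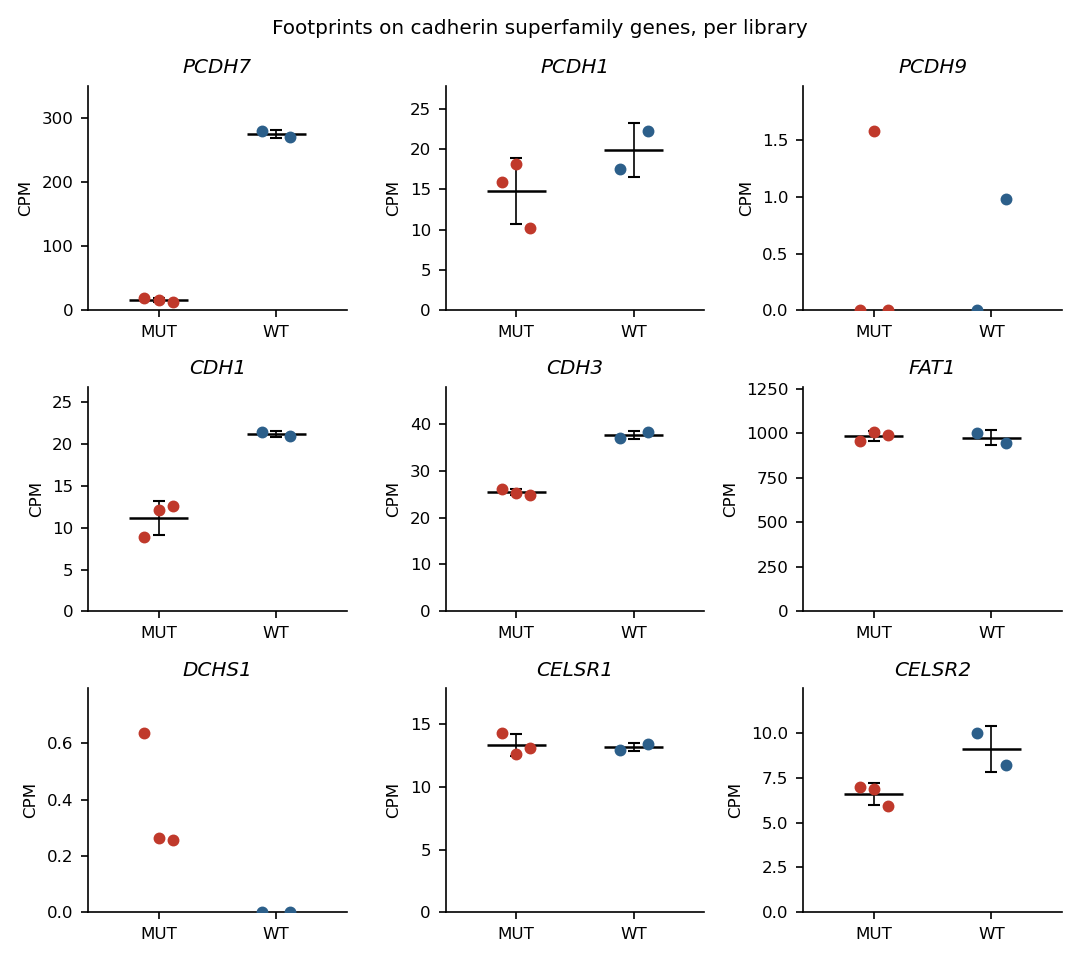
Footprint level (CPM, vertical axes from 0, scales differ) on 9 cadherin superfamily genes, with 3 MUT libraries (red, left) and 2 WT libraries (blue, right) in each panel. Points are libraries, and bars are mean and SD, left out for PCDH9 and DCHS1, which had few counts. PCDH7 stood at 13.9 to 19.1 CPM in MUT and at 271 to 280.2 CPM in WT, while FAT1 overlapped between the groups.

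Among the other delta-1 protocadherins, PCDH1 did not pass the test and PCDH9 was barely counted. PCDH1, found in epithelia, had 15.9, 18.2 and 10.3 CPM in MUT libraries, against 17.5 and 22.2 CPM in WT libraries. The groups overlapped, since MUT replicate 2 lay above WT replicate 1. Its log2 fold change of -0.45 had a 95% interval of -0.96 to 0.05 and did not pass edgeR's quasi-likelihood test (adjusted p = 0.186). PCDH9, best known from the nervous system, had 0, 6 and 0 counts in MUT libraries and 0 and 3 counts in WT libraries. It failed the filter on low counts and no fold is given. At this depth a count of 6 has an exact Poisson 95% interval of 2.20 to 13.1, so differences in PCDH9 were not detectable.

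Of the 3 tested classical cadherins, CDH1 and CDH3 had lower footprints in MUT and CDH24 did not pass. CDH1 encodes E-cadherin, the main adhesion protein of epithelial adherens junctions, and CDH3 encodes P-cadherin. CDH1 had 8.91, 12.1 and 12.6 CPM in MUT libraries, against 21.5 and 20.9 CPM in WT libraries. These values came from 28, 46 and 49 counts in MUT and from 43 and 64 counts in WT. All MUT libraries lay below both WT libraries, and the log2 fold change was -0.90 (SE 0.235, edgeR's adjusted p = 0.00741). CDH3 had 26.1, 25.3 and 24.9 CPM in MUT libraries, against 37.0 and 38.3 CPM in WT libraries. Its groups did not overlap either, with a log2 fold change of -0.57 (SE 0.163, edgeR's adjusted p = 0.0136). Both calls ended without WT replicate 2, where CDH1 had an adjusted p of 0.0777 and CDH3 of 0.12, although the log2 fold changes were still -0.92 and -0.53. DESeq2 called CDH1 and missed CDH3 (adjusted p = 0.0697). CDH24 had a log2 fold change of 0.37, with a 95% interval of -0.40 to 1.14.

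Of the 6 tested members other than PCDH7, these 2 fell and 4 did not pass, and in 3 of the 6 all MUT libraries lay below both WT libraries. Over all 11991 tested genes, edgeR called 22.9%, of which the lower genes made 12.9% and the higher genes 10% of those tested. All MUT libraries lay below both WT libraries for 25.3% of tested genes, and above both for 25.4%. With 6 genes, the members' counts are too few to be set apart from these shares. All tested members reached the filter's level in all libraries of both groups, so none entered through its higher group alone. The median log2 fold change of these 6 members was -0.45, against 0.0024 over all tested genes. Because the members were chosen with earlier results of these data known, this median is a description only.

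CDH1 and CDH3 are neighbours on chromosome 16. CDH3 (gene ID 1001) ends at 68733771, and CDH1 (gene ID 999) spans 68737292 to 68835537, with 3520 bases between them. For every 100 counts on CDH3 there were 34.1, 47.9 and 50.5 counts on CDH1 in MUT libraries, against 58.1 and 54.7 in WT libraries. The ratio was lower in all MUT libraries and lowest in MUT replicate 1. It rested on 28, 46 and 49 CDH1 counts in MUT libraries and 43 and 64 in WT libraries. Whether its difference exceeds counting error was not tested. Of 169 tested genes within 15 Mb of CDH1, 34 fell and 8 rose, with a median log2 fold change of -0.10. The share that fell was 20.1%, beside 12.9% of all tested genes.

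FAT1 footprints did not differ detectably between the groups. FAT1 is a giant cadherin that limits growth and organises actin, and it was the best counted member. It had 956, 1009 and 989 CPM in MUT libraries, against 1005 and 948 CPM in WT libraries. The MUT values lay within or next to the WT range. The log2 fold change was 0.012, and its 95% interval of -0.19 to 0.21 corresponds to folds of 0.879 to 1.16. Its sign turned without WT replicate 2 (-0.023) and without MUT replicate 2 (-0.0019). FAT1 (gene ID 2195) also lies on chromosome 4, at 186587794 to 186726696, far from PCDH7.

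The polarity cadherins CELSR1 and CELSR2, 7-pass receptors of the planar polarity pathway, were counted thinly. CELSR1 had 14.3, 12.6 and 13.1 CPM in MUT libraries, against 13.0 and 13.4 CPM in WT libraries. The groups overlapped, and the log2 fold change of 0.0091 had a 95% interval of -0.51 to 0.52 and turned sign without WT replicate 1 (-0.017) or MUT replicate 1 (-0.039). CELSR2 had 6.998, 6.85 and 5.90 CPM in MUT libraries, against 9.99 and 8.17 CPM in WT libraries. All MUT libraries lay below both WT libraries, but the log2 fold change of -0.45 did not pass (95% interval -1.14 to 0.25, edgeR's adjusted p = 0.362). CELSR2 rested on 20 to 26 counts per library. DCHS1, the partner of FAT cadherins in flies and mammals, had 2, 1 and 1 counts in MUT libraries and 0 and 0 counts in WT libraries, and no fold is given.

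The rest of the superfamily showed few changes that passed. Of 114 superfamily genes listed, 91 were in the table and 20 passed the filter. CDHR3 and FAT4 cleared the filter through MUT libraries alone and are left out of the counts here. Of the remaining 17 genes other than PCDH7, 3 fell (CDH1, CDH3 and DSC2) and 14 did not pass, with a median log2 fold change of -0.044. The share called was 17.6%, beside 22.9% of all tested genes. With CDHR3 and FAT4 counted as well, the median was 0.0091. Without WT replicate 2 edgeR called 0 superfamily genes other than PCDH7 as lower, with 3 at an unadjusted p under 0.05, and DESeq2 on all libraries called 2.

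Within the desmosomal cadherins, which anchor keratin filaments between cells, DSC2 moved and its partner DSG2 did not pass. DSC2 had 26.1, 29.8 and 33.1 CPM in MUT libraries, against 43.9 and 49.0 CPM in WT libraries. The groups did not overlap, and the log2 fold change was -0.65 (SE 0.156, edgeR's adjusted p = 0.00416), with the call lost without WT replicate 2 (adjusted p = 0.103). DSG2 had a log2 fold change of -0.063 with a 95% interval of -0.27 to 0.14, and was at 0.0097 with library size only. For every 100 counts on DSG2 there were 21.4, 24.7 and 26.8 counts on DSC2 in MUT libraries, against 33.1 and 39.9 in WT libraries. DSC3 had a log2 fold change of 0.49 and did not pass (edgeR's adjusted p = 0.131).

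Among atypical cadherins, CDHR3, a cadherin of airway epithelium, had 11, 11 and 16 counts in MUT libraries and 1 and 3 counts in WT libraries. All MUT libraries lay above both WT libraries. Because CDHR3 was tested only through its higher group, no test is given for it. CLSTN1, a calsyntenin of vesicle transport, had a log2 fold change of 0.12 with a 95% interval of -0.14 to 0.38. CLSTN3 and CDH23 had log2 fold changes of 0.47 and 0.31 and did not pass, and CDH23 was at -0.011 with the replicate block. FAT4, a giant cadherin that also entered through MUT libraries alone, had 15, 15 and 12 counts in MUT libraries and 1 and 9 counts in WT libraries.

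Most of the superfamily was at the edge of detection in HCT116. Of the 71 genes in the table that failed the filter, 35 had at most 3 counts over all 5 libraries. CDH2, N-cadherin, the mesenchymal cadherin, had 0, 1 and 0 counts in MUT libraries and 1 and 0 counts in WT libraries. Of 41 clustered protocadherins in the table, 2 were tested. Those of the alpha and gamma clusters share 3′ exons within their cluster. PCDHA1 and PCDHGA10 had log2 fold changes of -0.57 and 0.15 and did not pass, PCDHGA10 with the sign turned without WT replicate 2 (-0.23).

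**Figure D2:**
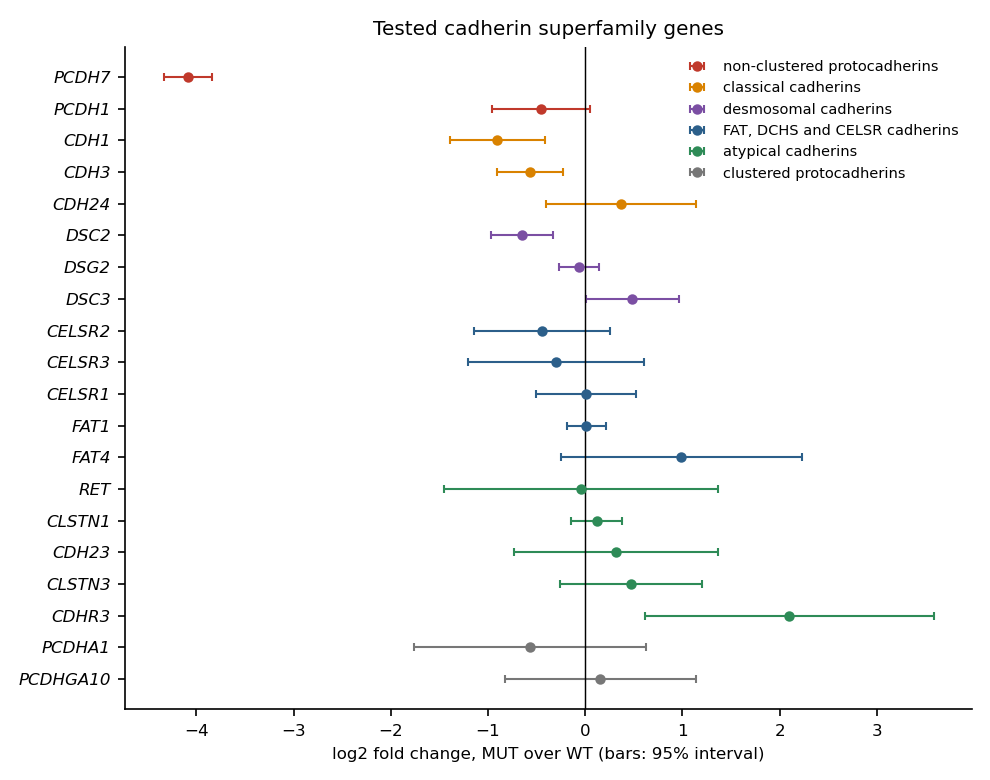
Log2 fold change, MUT over WT (horizontal axis), of the 20 tested superfamily genes, coloured by family, with 95% intervals from edgeR. PCDH7 lies at -4.09, apart from the 19 others, which lie between -0.90 (CDH1) and 2.10 (CDHR3). PCDH7 was picked for its fall, and CDHR3 and FAT4 cleared the filter through MUT libraries alone. The intervals of these genes are a description and carry no test.

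**Figure D3:**
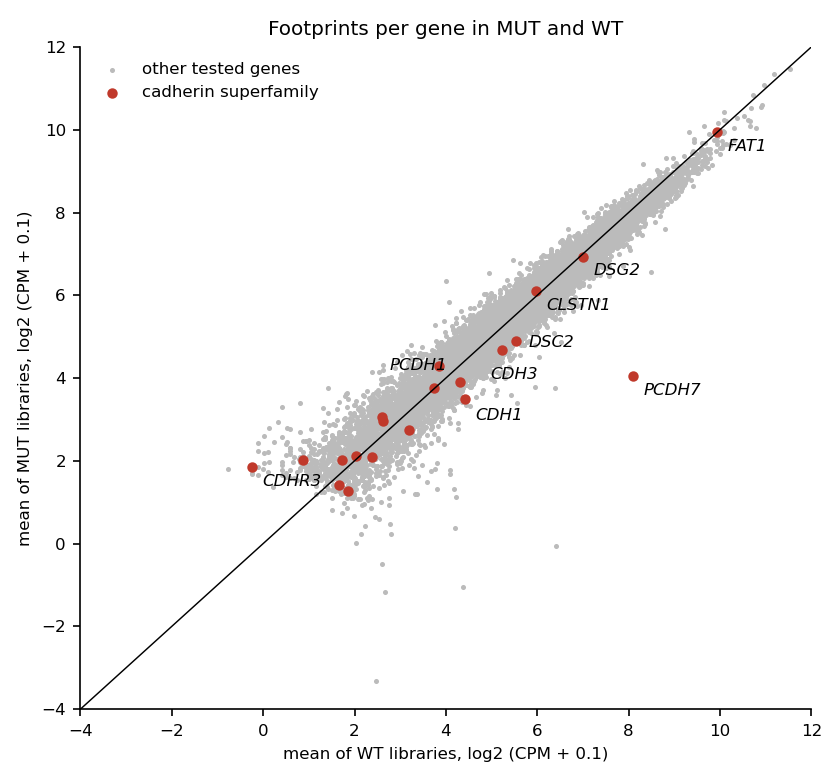
Mean footprint level per gene in MUT libraries (vertical) against WT libraries (horizontal), both as log2 of CPM plus 0.1, for all 11991 tested genes (grey) and the 20 tested superfamily genes (red). PCDH7 lies far below the line of equal levels and FAT1 lies on it.

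Counted together, superfamily genes held a smaller share of footprints in every MUT library, and with PCDH7 left out the groups overlapped. Unscaled, they held 1386, 1416 and 1425 CPM in MUT libraries, against 1638 and 1595 in WT libraries. Without PCDH7 they held 1367, 1399.6 and 1411 CPM in MUT libraries, against 1371 and 1329.9 in WT libraries. Most of that sum is FAT1. Without FAT1 as well they held 389.8, 379.9 and 402.8 CPM in MUT libraries, against 410.5 and 402.8 in WT libraries, and the highest MUT library and the lowest WT library were equal to the digits given.

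The genes around PCDH7 on chromosome 4 had far smaller fold changes. The 3 nearest tested genes on one side were STIM2, TBC1D19 and RBPJ, 3.69, 3.86 and 4.29 Mb away, with log2 fold changes of -0.037, -0.36 and -0.24. On the other side ARAP2, RELL1 and PGM2 lay 4.86, 6.44 and 6.68 Mb away, with log2 fold changes of -0.16, -0.27 and -0.27. These 6 neighbours did not pass edgeR's test (adjusted p from 0.0787 for RBPJ to 0.914 for STIM2), and the sign of STIM2 turned in 4 settings. Of 50 tested genes within 15 Mb, 8 fell and 1 rose. The share that fell, 16%, compares with 12.9% of all tested genes, and the median log2 fold change was -0.16. The lowest, at -1.17, was FGFBP1, a growth factor binding protein named after its value was seen. Its call ended in 4 of the 11 alternative settings that tested it, among them without WT replicate 1, WT replicate 2 or MUT replicate 1.

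**Figure D4:**
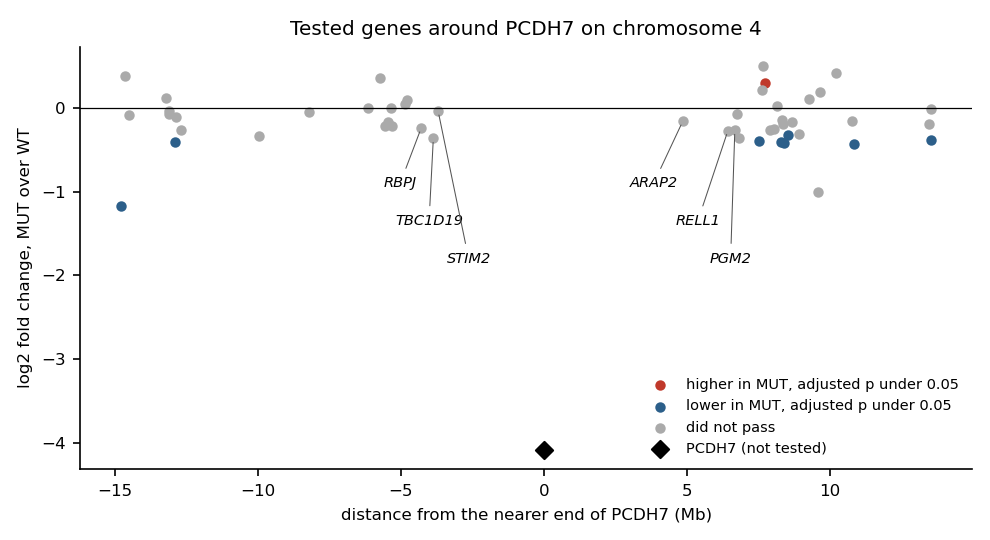
Log2 fold change, MUT over WT (vertical axis), of 50 tested genes within 15 Mb of PCDH7 on chromosome 4, by distance from the nearer end of PCDH7 in Mb. PCDH7 (black diamond) lies at -4.09 and its neighbours lie at -1.17 or above.

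By distance between their profiles of log2 CPM over the 5 libraries, each centred on its mean, the genes most like PCDH7 among 10274 others were VASP, KRT23, ADGRF1, MAL2, RPS4Y1 and NFIB. The distances ran from 1.67 for VASP to 2.57 for NFIB, against a median of 4.43. VASP, an actin regulator, had 12.1, 14.2 and 13.9 CPM in MUT libraries, against 91.9 and 75.2 CPM in WT libraries. Its log2 fold change of -2.62 was smaller in size than that of PCDH7. KRT23, ADGRF1, MAL2 and NFIB had log2 fold changes of -2.15, -2.15, -1.93 and -1.80. RPS4Y1, a gene of chromosome Y, had 4, 5 and 0 counts in MUT libraries, against 151 and 289 counts in WT libraries. Its log2 fold change of -6.62 rests on few MUT counts, and its cause was not tested. This ranking mostly picks genes with a large fall and so gives no support to any link between them.

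Genes that work with cadherins were counted by list. Of 20 tested catenins and adherens junction partners, 3 rose, 2 fell and 15 did not pass, with a median log2 fold change of 0.10. The share called was 25%, near the 22.9% of all tested genes. ARVCF, a catenin of the p120 family, had 19.7, 18.4 and 12.8 CPM in MUT libraries, against 8.49 and 7.52 CPM in WT libraries. It rose with a log2 fold change of 1.09 (edgeR's adjusted p = 0.00796), and the groups did not overlap. TJP1, the junction scaffold ZO-1, rose with a log2 fold change of 0.34. LIMA1, which ties the cadherin complex to actin, and CTNNAL1, an alpha-catenin relative, fell with log2 fold changes of -0.34 and -0.31. Of 12 alternative settings, the LIMA1 call ended in 2 and the CTNNAL1 call in 6. The ARVCF call ended without WT replicate 2 (adjusted p = 0.12), and the TJP1 call without WT replicate 2, MUT replicate 1 or MUT replicate 2.

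The core catenins were named for their role after their values were seen. JUP (plakoglobin) rose with a log2 fold change of 0.30. Its call ended in 4 of 12 alternative settings, among them without WT replicate 1, MUT replicate 1 or MUT replicate 2. CTNNA1, CTNNB1 and CTNND1 (alpha-, beta- and p120-catenin) had log2 fold changes of 0.26, -0.040 and -0.081 and did not pass. CTNNA1 was close to the threshold (edgeR's adjusted p = 0.0555) and was called higher in 6 of 12 alternative settings, such as without MUT replicate 3 (0.03). The sign of CTNNB1 turned in 5 settings. In this list edgeR called 1 gene as higher without WT replicate 2, MUT replicate 1 or MUT replicate 2, and called 5 with upper-quartile scaling, on library size alone or with the replicate block. Without WT replicate 2 edgeR called 0 as lower, with 1 at an unadjusted p under 0.05, and without MUT replicate 1 it called 0, with 2 at that level. A single gene fell without MUT replicate 3, on upper-quartile or library-size scaling and in DESeq2.

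Cadherins are cut and modified by dedicated enzymes. Of 15 tested genes of cleavage and glycosylation 2 fell and 13 did not pass, with a median of 0.18. The share called was 13.3%, beside 22.9% of all tested genes. ADAM10, the protease that sheds E-cadherin, had 58.2, 55.8 and 56.2 CPM in MUT libraries, against 80.9 and 78.5 CPM in WT libraries. It fell with a log2 fold change of -0.49 (edgeR's adjusted p = 0.00443) and was called in all 12 alternative settings. TMTC4, a mannosyltransferase of cadherin repeats, fell with a log2 fold change of -0.58, and its call ended in 8 of 12 settings, among them without WT replicate 2, MUT replicate 1, MUT replicate 2 or MUT replicate 3. PSEN2, of the gamma-secretase complex, and ADAM9, another protease, had log2 fold changes of 0.91 and -0.26 and did not pass, although PSEN2 passed without MUT replicate 2 (adjusted p = 0.0464), on library size alone (0.0461), with no count filter (0.041) and with the replicate block (0.0311), and ADAM9 passed with the block (0.0311).

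Of 9 genes of cadherin endocytosis and turnover, 2 rose, 2 fell and 5 did not pass, with a median of -0.083. The share called was 44.4%, beside 22.9% of all tested genes. With 9 genes, the counts of this list are too few to be set apart from that share. The vesicle scission protein DNM2 and PIP5K1C, a lipid kinase, rose with log2 fold changes of 0.51 and 0.50. The trafficking GTPases ARF6 and RAB11A fell with log2 fold changes of -0.38 and -0.31. Without WT replicate 2, 1 rose and 1 fell, and PIP5K1C (adjusted p = 0.126) and RAB11A (0.0771) lost their calls. The RAB11A call also ended without MUT replicate 1 (adjusted p = 0.0605) and on library size alone.

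Of 16 tested genes of planar polarity and FAT-DCHS signalling, 4 rose and 12 did not pass, with a median of 0.20. The share called was 25%, near the 22.9% of all tested genes. Over all tested genes, 10% rose and 12.9% fell. With 16 genes, the counts of this list are too few to be set apart from these shares. DVL3, a Dishevelled adaptor, had 116, 114 and 112 CPM in MUT libraries, against 76.4 and 78.8 CPM in WT libraries, with a log2 fold change of 0.55 (edgeR's adjusted p = 7.48e-04). INTU, a polarity effector of ciliated cells, and PRICKLE1 and PRICKLE3, core polarity proteins, rose with log2 fold changes of 0.86, 1.03 and 0.62. The PRICKLE1 call ended without WT replicate 2. The PRICKLE3 call ended in 4 of 12 alternative settings, among them without MUT replicate 1 or 2. The groups did not overlap for these 4 genes. Without WT replicate 1, 2 rose, and INTU (adjusted p = 0.0655) and PRICKLE3 (adjusted p = 0.213) lost their calls.

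PCDH7 has been reported to bind protein phosphatase 1 and, in lung cancer cells, the phosphatase inhibitor SET. Of 8 genes of these partners and of the core of phosphatase 2A, 3 fell and 5 did not pass. The share called was 37.5%, beside 22.9% of all tested genes. Over all tested genes, 12.9% fell. With 8 genes, the counts of this list are too few to be set apart from these shares. PPP1CB and PPP1CC, catalytic subunits of phosphatase 1, fell with log2 fold changes of -0.42 and -0.34, and SET fell with -0.37. PPP1CA, the subunit reported to bind the tail, was named after its value was seen and had a log2 fold change of 0.020 (95% interval -0.18 to 0.22), with a sign that turned without WT replicate 2 or MUT replicate 3. PPP2R1A, the scaffold of phosphatase 2A, had a log2 fold change of 0.20 and did not pass. Without MUT replicate 1, 1 of the 3 fell, and SET (adjusted p = 0.0558) and PPP1CC (0.0657) lost their calls, as SET did without WT replicate 2 (0.0844). SET has near-identical copies in the genome, so its counts are uncertain.

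Among regulators of E-cadherin transcription, ZEB1 rose, GRHL2, HNF4A and ELF3 fell, and most did not pass. ELF3, named after its value was seen, had a log2 fold change of -0.59 (edgeR's adjusted p = 0.018). Of 15 tested, SNAI2 and TCF4 cleared the filter through MUT libraries alone and are left out of the counts. Of the other 13 genes 1 rose, 3 fell and 9 did not pass, with a median of -0.12. The share called among these 13 was 30.8%, beside 22.9% of all tested genes. With 13 genes, these counts are too few to be set apart from that share. The sign of the median depends on leaving out SNAI2 and TCF4, since over all 15 it was 0.12. ZEB1, a repressor of E-cadherin, had 21.9, 29.8 and 31.0 CPM in MUT libraries, against 16.5 and 13.1 CPM in WT libraries. It rose with a log2 fold change of 0.94 (edgeR's adjusted p = 0.00366), and the groups did not overlap. GRHL2, an activator of E-cadherin, had 24.8, 20.3 and 25.1 CPM in MUT libraries, against 38.5 and 51.7 CPM in WT libraries. It fell with a log2 fold change of -0.97 (edgeR's adjusted p = 3.07e-04), again without overlap.

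HNF4A, an epithelial transcription factor of gut and liver, had 5.73, 4.74 and 5.13 CPM in MUT libraries, against 13.98 and 17.0 CPM in WT libraries. Its log2 fold change of -1.59 passed in all 11 alternative settings that tested it. The repressor SNAI2 had 14, 22 and 12 counts in MUT libraries and 3 and 1 counts in WT libraries, and no test is given for it. Without WT replicate 2 this list had 1 lower gene, and ZEB1 (adjusted p = 0.109) and GRHL2 (0.0548) lost their calls.

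**Figure D5:**
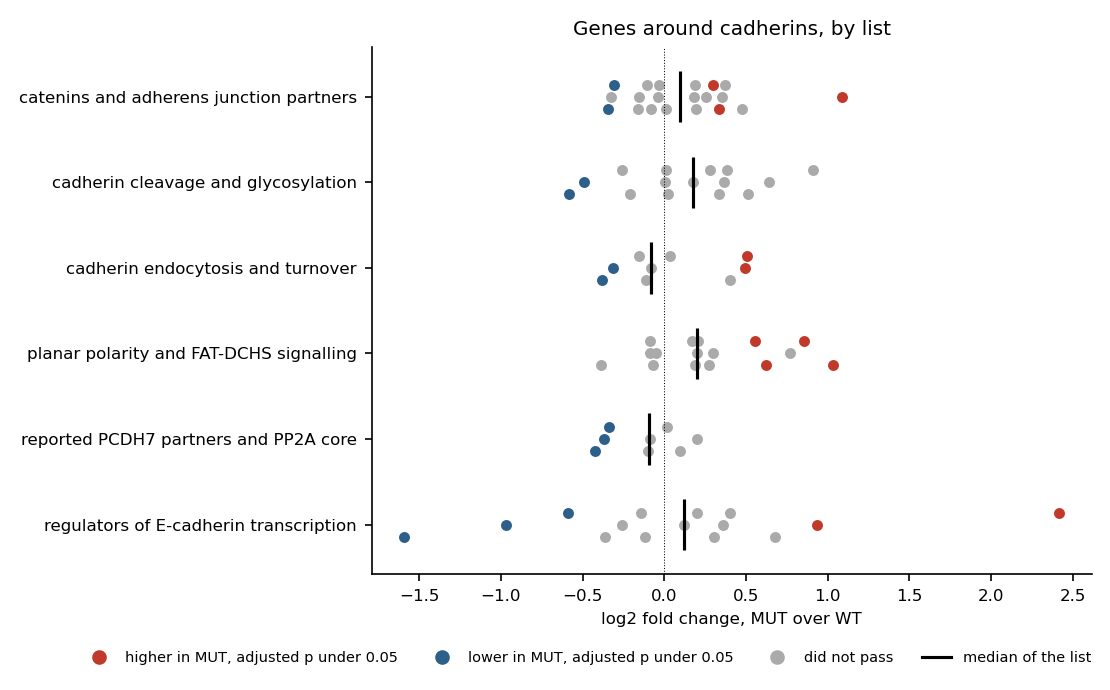
Log2 fold change, MUT over WT (horizontal axis), of the tested genes of 6 lists around cadherins, with calls higher in MUT in red, calls lower in blue, the rest in grey and each list's median over all its tested genes as a black bar. The medians lie between -0.09 and 0.20, and HNF4A (-1.59) and SNAI2 (2.42, tested through MUT libraries alone) lie farthest out.

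Library totals ran from 3076137 to 3821176 counts in MUT and from 2095217 to 3128144 in WT. The colon epithelial markers KRT8, KRT18, KRT19 and EPCAM were well counted, and the summed level of that list was 1139 to 1449 CPM in MUT and 1065 to 1164 CPM in WT. VIL1 and CDX1 had at most 2 counts in any library. Beside the lower CDH1, EPCAM fell with a log2 fold change of -0.50, while KRT8 and KRT19 rose with 0.37 and 0.29. The EPCAM call ended without WT replicate 2 or MUT replicate 1. The KRT8 and KRT19 calls ended without WT replicate 1, WT replicate 2, MUT replicate 1 or MUT replicate 2. Of 12 alternative settings, the KRT19 call ended in 5. Of 11 fibroblast and mesenchyme markers in the table, the summed level was 40.0 to 47.0 CPM in MUT and 31.0 to 36.0 CPM in WT. ACTA2 alone passed, with a log2 fold change of 0.81. The ACTA2 call ended in 3 of 12 alternative settings, among them without WT replicate 1 or MUT replicate 1. COL1A2, COL3A1, PDGFRA, DCN and LUM had at most 3 counts in any library. Immune markers summed to 5.41 to 8.21 CPM in MUT and 1.96 to 4.49 CPM in WT, endothelial ones to 1.32 to 1.91 CPM in MUT and 1.63 to 5.49 CPM in WT. Neuronal markers summed to 53.4 to 61.9 CPM in MUT and 113 to 125 CPM in WT, nearly all of it the tubulin TUBB3, whose log2 fold change was -1.14. The part of these markers in the cadherin values was not tested.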

How the data were processed

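The deposited values are raw counts of ribosome-protected fragments per gene, whole numbers with unequal library totals, taken as not normalized by the authors. Per the labels' protocols, extract was digested with MNase, 80S monosomes were taken from a sucrose gradient, and fragments of 25 to 35 nucleotides were sequenced. MNase prefers A and T, so recovery depends on base composition. The submitters' processing notes name hg38 as the build and STAR 2.5.2b, cutadapt 4.6, DESeq2 1.42.0 and FastQC 0.12.1 as tools. How fragments were assigned to genes, and how strand and multiply mapped reads were treated, is not stated in the labels.

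Counts were tested with edgeR 4.0.16 in R 4.3.3 over all 5 libraries: filterByExpr (minimum count 10, minimum total 15), TMM scaling (factors 0.959 to 1.03), quasi-likelihood F test and Benjamini-Hochberg adjustment over 11991 genes at 0.05. CPM uses the TMM-scaled sizes. Log2 fold changes are MUT over WT, and SE and intervals come from the F statistic. A shift shared by all genes is invisible to this scaling. Each of the 10 library pairs exceeded counting error (chi-square over the number of genes at least 1.91), so none was counted as a duplicate. The fit was tested on simulated data. Of the gene names, 17077 matched RefSeq's GRCh38.p14 table, which has the chromosomes of hg38, and 220 did not.

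The members and lists were chosen with earlier results of these data known. Named genes are the members, up to 4 genes of lowest p per list (2 where none passed), the 6 nearest to PCDH7 in profile (mean of at least 10 CPM, log2 with prior count 2) and its 3 nearest tested neighbours on each side. Alternatives were DESeq2 1.42.0, scaling by RLE, by upper quartile or by library size alone, no count filter, a strict one (30 counts in 2 libraries and a mean of 10 CPM), each library left out and the replicate number as a block. Genes that cleared the filter through 1 group alone were left out of the list counts, a choice made after their values were seen.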

Additional observations from a re-analysis of the deposited data

How the results depend on the processing

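PCDH7 kept its direction in all 12 alternatives and moved by less than the spread between libraries, with -3.98 under the replicate block and -4.20 to -3.97 when a library was left out. Over all genes the called numbers were 1203 higher and 1544 lower, against 610 and 953 with DESeq2, 509 to 1089 higher and 732 to 1339 lower with a library left out, and 1529 and 1909 with the replicate block. Of all calls 43.8% were higher, against 56.3% after upper-quartile scaling and 62.8% on library size alone. Of the 19 superfamily genes tested beside PCDH7, 3 were called lower and 1 higher (CDHR3, tested through MUT libraries alone), and these counts ran from 0 to 3 and from 0 to 1 with a library left out. CDHR3 did not enter the test with the strict filter or without MUT replicate 3, and DESeq2 gave it no adjusted p. Without a filter a 4th gene fell, CLSTN2, named after its value was seen. CLSTN2 had 0, 0 and 1 counts in MUT libraries and 11 and 1 counts in WT libraries. Its fall therefore rests on WT replicate 1 alone. Of the other members 2 fell, 0 to 2 with a library left out, and 1 with DESeq2. The replicate numbers are shared by the groups in the labels, but nothing says that they pair libraries, and deviations of same-numbered libraries correlated at 0.0793 and 0.148. The block changed no call among the members. Among the single genes recomputed, signs turned for genes that did not pass: FAT1 (-0.023 to 0.048 with a library left out), CELSR1 (-0.039 to 0.049), PCDHGA10 (-0.23 to 0.51), CDH23 (-0.011, replicate block), DSG2 (0.0097, library size), STIM2 (-0.21 to 0.10 with a library left out, 0.0077 by upper quartile, 0.035 by library size), CTNNB1 (-0.23 to 0.20 with a library left out, 0.0064 by upper quartile, 0.031 by library size, 0.046 with the block) and PPP1CA (-0.12 to 0.15 with a library left out, -0.0027 with the replicate block). The cause of these differences was not tested. The planned correction for protein length was not run, since no protein lengths were at hand. Depth limits members with few counts: DCHS1 and PCDH9 could not be compared.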
